A study of Homo sapiens with 16 samples.

Results

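Counts of polyadenylated RNA were examined for the Krüppel-like factor (KLF) genes KLF2, KLF3, KLF4, KLF6, KLF9, KLF10, KLF11, KLF13 and KLF16 in HL60 cells given an inhibitor of the kinase CDK7. These 9 genes were looked up by name among the 18093 rows of the count table. A row was found for 8 of them, all 8 passed the filter on low counts, and KLF13 was not analysed here. HL60 is a human acute promyelocytic leukaemia cell line, labelled as wild type. The cells were given 50 nM SY-351 for 5 h or the solvent DMSO alone (labelled DMSO control), and both groups were otherwise grown alike. CDK7 is the catalytic subunit of the kinase module of the general transcription factor TFIIH, and the study asked how transcription, splicing and termination depend on it. Each group held 4 numbered replicates. Whether each replicate was its own culture is not stated, and every p-value here covers the spread of these 8 libraries alone, which may be technical.

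KLF proteins are transcription factors with zinc fingers at the carboxy terminus, through which they bind GC boxes and CACCC boxes. They fall into activators that recruit acetyltransferases (KLF2, KLF4 and KLF6 here), repressors that bind the SIN3A corepressor (KLF9, KLF10, KLF11, KLF13 and KLF16) and repressors that bind CtBP (KLF3). Several are immediate early genes, whose short-lived mRNAs answer quickly to growth factors and stress. In the myeloid lineage, from which HL60 derives, KLF4 favours monocyte differentiation and KLF2 restrains inflammatory activation.

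Many KLF promoters carry the GC boxes that KLF and SP proteins themselves bind, so the promoters of 4 members are shown. They come from RefSeq on GRCh38.p14, and each runs 5′ to 3′ from 250 bases before the annotated start to 50 bases after it. Capitals mark the GC box, GGGCGG on either strand. KLF2 lies at chr19:16324576-16324875 on the plus strand. KLF4 lies at chr9:107489720-107490019, KLF6 at chr10:3785160-3785459 and KLF16 at chr19:1863530-1863829, all on the minus strand.
KLF2: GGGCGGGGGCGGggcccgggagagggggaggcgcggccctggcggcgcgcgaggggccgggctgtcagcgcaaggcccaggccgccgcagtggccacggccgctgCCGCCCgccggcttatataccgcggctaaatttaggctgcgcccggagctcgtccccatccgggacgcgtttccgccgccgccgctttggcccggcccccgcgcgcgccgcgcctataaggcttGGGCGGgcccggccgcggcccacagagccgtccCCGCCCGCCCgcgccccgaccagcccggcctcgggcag
KLF4: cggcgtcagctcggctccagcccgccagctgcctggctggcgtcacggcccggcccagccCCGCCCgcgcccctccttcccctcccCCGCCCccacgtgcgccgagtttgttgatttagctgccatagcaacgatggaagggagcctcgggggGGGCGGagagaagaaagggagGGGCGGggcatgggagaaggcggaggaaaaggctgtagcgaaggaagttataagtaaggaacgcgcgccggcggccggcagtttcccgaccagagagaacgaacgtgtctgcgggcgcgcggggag
KLF6: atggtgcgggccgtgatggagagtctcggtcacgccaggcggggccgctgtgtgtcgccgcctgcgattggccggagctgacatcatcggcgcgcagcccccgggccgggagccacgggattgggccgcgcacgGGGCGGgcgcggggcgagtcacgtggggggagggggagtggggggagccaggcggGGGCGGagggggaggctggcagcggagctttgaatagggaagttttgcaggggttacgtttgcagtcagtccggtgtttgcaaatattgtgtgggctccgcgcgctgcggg
KLF16: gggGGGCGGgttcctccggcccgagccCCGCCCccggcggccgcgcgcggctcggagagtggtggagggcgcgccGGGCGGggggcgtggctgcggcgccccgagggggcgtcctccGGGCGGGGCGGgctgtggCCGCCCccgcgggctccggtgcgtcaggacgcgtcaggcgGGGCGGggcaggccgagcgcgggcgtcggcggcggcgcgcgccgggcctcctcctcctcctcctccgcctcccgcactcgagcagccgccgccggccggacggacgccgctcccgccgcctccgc

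The KLF2 window holds 6 GC boxes, the KLF4 window 4, the KLF6 window 2 and the KLF16 window 7, where overlapping matches are counted separately. Of the 34943 RefSeq promoters of the same length, 44.9% hold at least 1 GC box and 15.7% hold at least 3. Their base composition is high in G and C, at 80.7% for KLF2, 69% for KLF4, 70.7% for KLF6 and 86% for KLF16. The CACCC box (either strand), found in 59.8% of all promoters, is in none of these 4 windows. None of the 4 has the TATA box letters TATAAA, which 11.6% of promoters hold on either strand. KLF2 also holds a site of the MEF2 type, printed here because MEF2 factors are known activators of KLF2: tataccgcggCTAAATTTAGgctgcgcccg, with the site in capitals beginning 120 bases before the start (position -120). Such a site was found in 3% of promoters. The RefSeq start of KLF6 lies 72 bases from the start used in the count table. The RefSeq window of KLF9 has 32.7% G and C and 0 GC boxes. KLF11 has 2 RefSeq starts, with 2 and 7 GC boxes, which lie 279 and 671 bases from the start in the count table. Matches of letters describe these windows and do not show binding.

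The 8 libraries held 77.9, 77.7, 61.4 and 43.3 M counts in SY-351 replicates 1 to 4, against 107.3, 103.7, 124.2 and 116.8 M in DMSO replicates 1 to 4. Values are CPM, counts scaled to the library total, with TMM scaling, and 3 counts equal 0.0363 to 0.0676 CPM in the SY-351 libraries and 0.015 to 0.0441 CPM in the DMSO libraries. The TMM factors were 0.661 and 0.657 for DMSO 1 and 2, against 1.61 and 1.21 for DMSO 3 and 4. They were 1.02 to 1.07 for the SY-351 libraries. DMSO 1 and 2 resembled each other and no other library, and the labels name no batch. Across genes, log CPM of DMSO 1 correlated with DMSO 2 at 0.983 (Pearson's r) and DMSO 3 with DMSO 4 at 0.987, while the 4 pairings across gave 0.762 to 0.794. The SY-351 libraries correlated at 0.937 to 0.954 with DMSO 3 and 4 and at 0.727 to 0.759 with DMSO 1 and 2. The fold and test of each KLF gene are therefore given with all 8 libraries and again without DMSO 1 and 2. The table has no spike-in, so all levels are relative to the other RNA of the library, and fewer cells cannot be told apart from less RNA per cell. CDK7 itself was not analysed here, and an inhibitor of its activity need not change its mRNA.

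All 8 KLF genes had lower mean levels in SY-351 cells than in DMSO cells. With all 8 libraries, 5 of 8 fell at an edgeR adjusted p below 0.05 (KLF2, KLF3, KLF4, KLF9 and KLF11), where 13.6% of all 15472 tested genes fell. The members were chosen with earlier results of these data known. The shares over all genes are therefore given as a description, and an excess of the members over them was not tested. No KLF gene rose (0 of 8, also 0 at an unadjusted p below 0.05, and 0 with DESeq2 or limma-voom), where 2.91% of all genes rose (9.27% at an unadjusted p below 0.05). At an unadjusted p below 0.05 all 8 were lower, as were 22.6% of all tested genes. On the TMM scale every SY-351 library was below every DMSO library for 7 of 8, KLF6 being the exception. On this scale 18.2% of all tested genes had every SY-351 library below every DMSO library and 15.5% had every one above. Scaled to library totals alone, the groups of KLF6 did not overlap and those of KLF10 did. Without DMSO 1 and 2, 7 of 8 fell, all but KLF6, against a background of 26.4% of genes lower and 21.9% higher. Set against DMSO 1 and 2 alone, 8 of 8 fell, against a background of 38.4% lower and 40.8% higher. Over the 8 genes the median log2 fold was -1.84 with all libraries (0.00 over all genes) and -1.02 without DMSO 1 and 2 (0.01 over all genes).

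**Figure D1:**
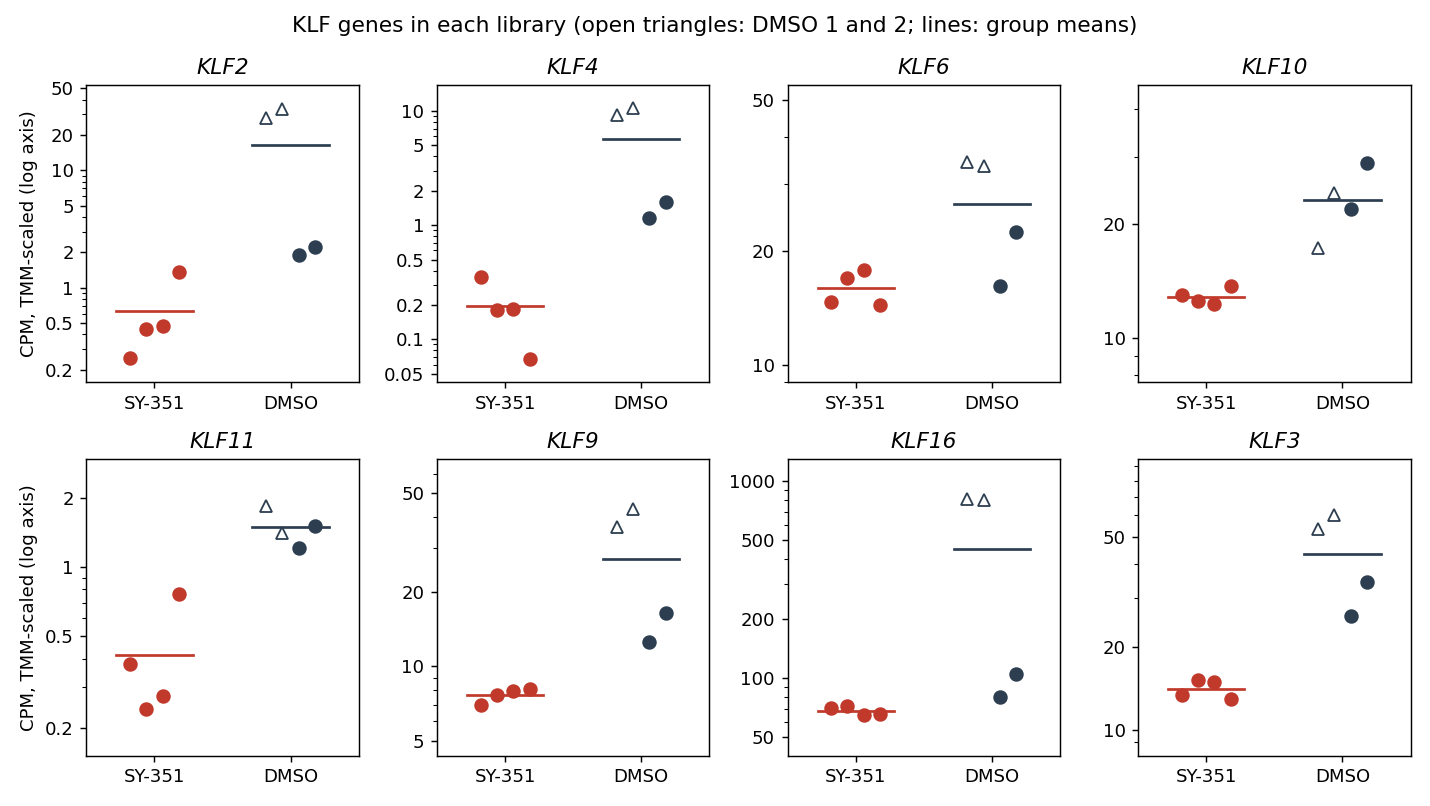
Level of each of the 8 KLF genes in each library, in TMM-scaled CPM on a log axis, with SY-351 libraries in red on the left and DMSO libraries in dark blue on the right. Open triangles are DMSO 1 and 2 and horizontal lines are group means. On this scale only KLF6 shows overlapping groups.

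KLF2, KLF4 and KLF6 are the activators among the members. KLF2, which keeps T cells quiescent and answers to blood flow in endothelium, lies on the plus strand of chromosome 19 (GRCh38, 16324826 to 16328662). It had 0.252, 0.448, 0.472 and 1.37 CPM in SY-351 replicates 1 to 4, against 28.1, 33.3, 1.89 and 2.2 CPM in DMSO replicates 1 to 4. The groups did not overlap, and DMSO 1 and 2 were far above DMSO 3 and 4. In SY-351 replicates 1 to 4 these values rested on 20, 37, 31 and 61 counts. KLF2 averaged 0.637 ± 0.502 CPM in SY-351 cells and 16.4 ± 16.7 CPM in DMSO cells (SD, n = 4 each). Its log2 fold was -4.69 with an SE of 1.16 (edgeR adjusted p = 0.0303), and folds below are likewise given with their SE. The fold was -1.71 ± 0.35 without DMSO 1 and 2 (edgeR adjusted p = 4.49e-06), still lower but much smaller. The call with 8 libraries ended when any 1 of the SY-351 libraries was left out (edgeR adjusted p 0.0654 to 0.105). It also ended without DMSO 1 (0.0641) or without DMSO 2 (0.0595).

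KLF4, a pluripotency factor that also drives monocyte differentiation, showed the largest fold of the 8 genes with all libraries. It lies on the minus strand of chromosome 9 (107484852 to 107489769). It had 0.353, 0.182, 0.183 and 0.0676 CPM in SY-351 replicates 1 to 4, against 9.3, 10.6, 1.15 and 1.6 CPM in DMSO replicates 1 to 4. All SY-351 libraries were below all DMSO libraries. The counts behind the SY-351 values were 28, 15, 12 and 3, and the last of these has an exact Poisson 95% interval of 0.0139 to 0.198 CPM, for counting error only. The log2 fold was -4.82 ± 0.93 (edgeR adjusted p = 0.013), and -2.73 ± 0.43 (1.97e-09) without DMSO 1 and 2. The call with 8 libraries ended without SY-351 2, 3 or 4 (edgeR adjusted p 0.0592, 0.0613 and 0.0534), and was kept without SY-351 1 (0.0489).

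KLF6, an activator found in most tissues and a reported tumour suppressor, was the member whose groups overlapped on the TMM scale. It lies on the minus strand of chromosome 10 (3775996 to 3785281). It had 14.6, 16.9, 17.8 and 14.4 CPM in SY-351 replicates 1 to 4, against 34.3, 33.5, 16.1 and 22.4 CPM in DMSO replicates 1 to 4. The value of DMSO 3 lay within the range of the SY-351 libraries. The log2 fold was -0.74 ± 0.31 (edgeR adjusted p = 0.146), and -0.25 ± 0.16 (0.199) without DMSO 1 and 2, so neither passed. KLF6 passed without DMSO 3 (edgeR adjusted p = 0.0337).

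KLF10, KLF11, KLF9 and KLF16 belong to the repressors that bind SIN3A. KLF10, first described as an early gene induced by TGF-β, lies on the minus strand of chromosome 8 (102648784 to 102655725). It had 13, 12.5, 12.3 and 13.7 CPM in SY-351 replicates 1 to 4, against 17.3, 24.1, 21.9 and 28.9 CPM in DMSO replicates 1 to 4. On the TMM scale the groups did not overlap, and DMSO 1 and 2 were not above DMSO 3 and 4. Scaled to library totals alone, KLF10 in DMSO 1 (1225 counts of 107.3 M) was below every SY-351 library. Its log2 fold of -0.84 ± 0.26 did not pass with all libraries (edgeR adjusted p = 0.062), while -0.96 ± 0.16 passed without DMSO 1 and 2 (4.8e-09). With TMM scaling KLF10 thus had about the same fold against either pair of controls (-0.83 ± 0.14 against DMSO 1 and 2 alone). With total count scaling the fold was -0.86 with all libraries (edgeR adjusted p = 0.233). It was -1.38 without DMSO 1 and 2 (edgeR adjusted p = 1.56e-08), so the KLF10 fold by controls depends on the scaling. KLF10 also passed with DESeq2 (adjusted p = 0.000807), with DESeq2's size factors in edgeR (adjusted p = 0.0476) and without DMSO 3 (edgeR adjusted p = 0.0453).

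KLF11, the second TGF-β-induced early gene of the family, was among the least abundant members. It lies on the plus strand of chromosome 2 (10043550 to 10054836). It had 0.379, 0.242, 0.274 and 0.766 CPM in SY-351 replicates 1 to 4, against 1.85, 1.41, 1.21 and 1.51 CPM in DMSO replicates 1 to 4. All SY-351 values were below all DMSO values, and the pairs of DMSO libraries overlapped. They rested on 30, 20, 18 and 34 counts in SY-351 cells and on 131, 96, 242 and 213 counts in DMSO cells. The log2 fold was -1.86 ± 0.42 (edgeR adjusted p = 0.0217), and -1.73 ± 0.40 (6.44e-05) without DMSO 1 and 2. The call with 8 libraries ended without SY-351 1, 2 or 3 (edgeR adjusted p 0.092, 0.0804 and 0.0912) and without DMSO 1 (0.0517).

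KLF9, which is induced by glucocorticoids and thyroid hormone, lies on the minus strand of chromosome 9 (70384597 to 70414657). It had 6.96, 7.68, 7.98 and 8.09 CPM in SY-351 replicates 1 to 4, against 36.7, 43.2, 12.5 and 16.4 CPM in DMSO replicates 1 to 4. The SY-351 libraries were close together and below every DMSO library. The log2 fold was -1.82 ± 0.44 (edgeR adjusted p = 0.0275), and -0.89 ± 0.17 (1.29e-06) without DMSO 1 and 2. With 8 libraries the call ended without any 1 of the SY-351 libraries (edgeR adjusted p 0.092 to 0.104), without DMSO 1 (0.066) and without DMSO 2 (0.0558).

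KLF16 was the most abundant member and the one most divided among the DMSO libraries after KLF2. It lies on the minus strand of chromosome 19 (1852399 to 1863579). It had 70.5, 72, 64.6 and 65.4 CPM in SY-351 replicates 1 to 4, against 811, 801, 80.3 and 105 CPM in DMSO replicates 1 to 4. On the TMM scale DMSO 3 and 4 were only slightly above the SY-351 libraries, and DMSO 1 and 2 were 8.72-fold above DMSO 3 and 4. The log2 fold was -2.72 ± 0.80 with all libraries (edgeR adjusted p = 0.0521, not passing) and -0.42 ± 0.16 without DMSO 1 and 2 (0.0187, passing). With total count scaling the fold without DMSO 1 and 2 was -0.84 (edgeR adjusted p = 4.94e-07), so its size depends on the scaling. KLF16 also passed with DESeq2 (adjusted p = 0.00143), with total count scaling (edgeR adjusted p = 0.0281), without DMSO 3 (0.0161) and without DMSO 4 (0.0286).

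KLF3, the repressor that binds CtBP and is known from erythroid and adipose cells, lies on the plus strand of chromosome 4 (38664199 to 38701517). It had 13.4, 15.1, 14.9 and 12.9 CPM in SY-351 replicates 1 to 4, against 53.3, 60, 25.8 and 34.4 CPM in DMSO replicates 1 to 4. The groups stood well apart whichever DMSO libraries are considered. The log2 fold was -1.62 ± 0.32 (edgeR adjusted p = 0.0143), and -1.07 ± 0.15 (1.84e-11) without DMSO 1 and 2. Only the loss of a SY-351 library ended the call among single libraries left out (edgeR adjusted p 0.0616 to 0.0698).

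**Figure D2:**
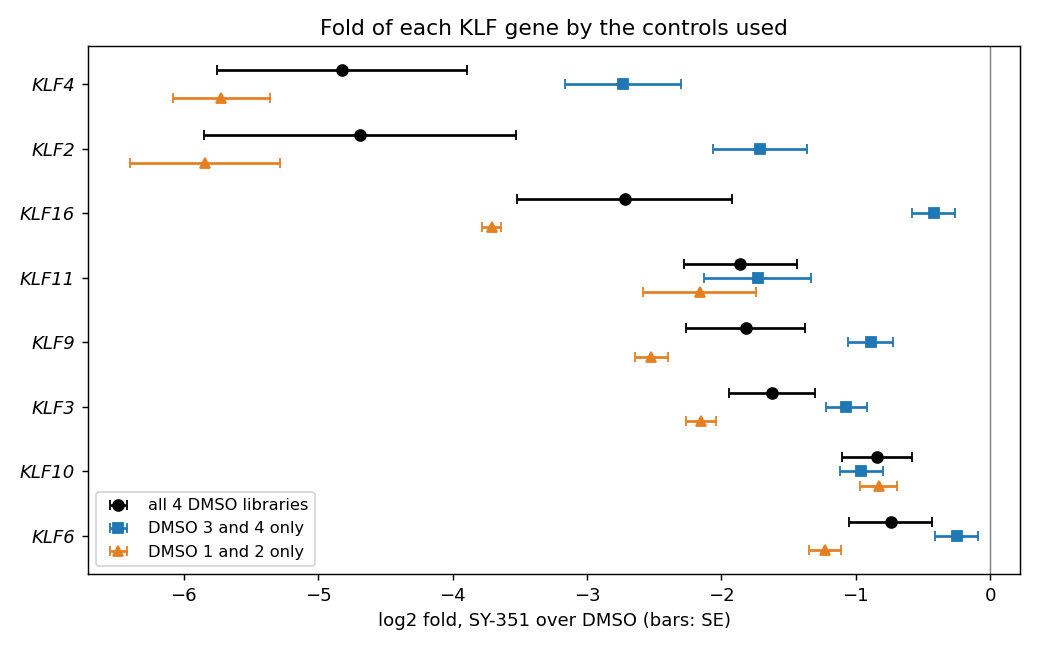
The log2 fold of SY-351 over DMSO for each KLF gene, from all 4 DMSO libraries (black circles), from DMSO 3 and 4 only (blue squares) and from DMSO 1 and 2 only (orange triangles), with bars for the SE. With TMM scaling in each fit, all points lie below 0, and KLF2, KLF4 and KLF16 move most with the controls, KLF10 and KLF11 least.

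The size of the KLF folds depended on which DMSO libraries were used. On the TMM scale 6 of 8 members were higher in both DMSO 1 and 2 than in both DMSO 3 and 4. So were 37.1% of all tested genes. Of the members, KLF10 and KLF11 were the exceptions. This count and the ratios below depend on the scaling. Scaled to library totals alone, KLF3 and KLF6 were not higher in DMSO 1 and 2. KLF3 had 3781 and 4083 counts there, against 5143 and 4862 in DMSO 3 and 4. KLF6 had 2432 and 2283 counts there, against 3218 and 3156. The ratio of DMSO 1 and 2 to DMSO 3 and 4 was 15 for KLF2, 8.72 for KLF16, 7.23 for KLF4, 2.76 for KLF9, 1.88 for KLF3 and 1.76 for KLF6. It was 1.2 for KLF11 and 0.814 for KLF10. The order of the members by fold changed with it. Without DMSO 1 and 2 the largest folds were those of KLF4, KLF11 and KLF2, and KLF16 was next to the smallest.

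This difference among the controls went along with base composition. Over 15114 tested genes with an annotated transcript, Pearson's r between transcript GC content and the difference between DMSO 1 and 2 and DMSO 3 and 4 (log2 of mean CPM + 0.5) was 0.56. The median difference was 1.93 for the 2514 genes with at least 60% GC and -0.73 for the 7900 genes below 50%. KLF2 (65.2% GC, difference 3.62), KLF16 (67.8%, 3.12) and KLF4 (55%, 2.48) have the most GC-rich transcripts of the 8. KLF3 (41.5%, 0.90), KLF10 (45.3%, -0.29), KLF6 (45.8%, 0.80), KLF9 (46.3%, 1.44) and KLF11 (47%, 0.19) lie below the median transcript, which has 49.6%. Over the 8 members r was 0.89, a description only, since all values come from the same 4 libraries. The part of GC content in the KLF folds was not tested.

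**Figure D3:**
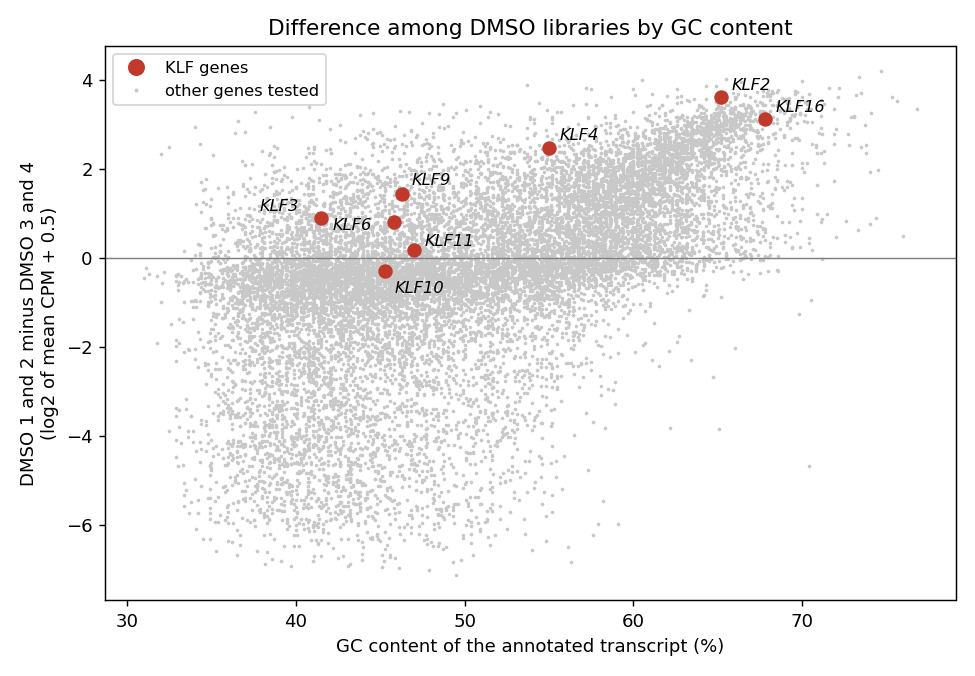
Difference between DMSO 1 and 2 and DMSO 3 and 4 for each tested gene (log2 of mean CPM + 0.5, vertical axis) against the GC content of its annotated transcript in percent (horizontal axis), with the 8 KLF genes in red and other genes in grey. KLF2, KLF16 and KLF4 lie at the upper right, with differences of 3.62, 3.12 and 2.48, and KLF10 lies at -0.29.

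Compared per kilobase of annotated transcript, the members spanned a wide range of levels. In SY-351 cells the order was KLF16 (23.6 ± 1.28 CPM per kb), KLF10 (4.16 ± 0.205), KLF6 (3.51 ± 0.367), KLF3 (2.75 ± 0.214), KLF9 (1.48 ± 0.0985), KLF2 (0.315 ± 0.249), KLF11 (0.103 ± 0.0598) and KLF4 (0.0698 ± 0.0419), each a mean ± SD of 4 libraries. Neighbours in that order did not overlap in range, except KLF2 with KLF11 and KLF11 with KLF4. In DMSO cells the same scale gave 155 ± 143 for KLF16, 8.47 ± 3.12 for KLF3, 8.12 ± 8.28 for KLF2, 7.45 ± 1.57 for KLF10, 5.86 ± 1.95 for KLF6, 5.25 ± 2.9 for KLF9, 2.01 ± 1.77 for KLF4 and 0.371 ± 0.0659 for KLF11. There only KLF16 stood clear of its neighbour, and all the others overlapped theirs in range. The order depended on the DMSO libraries. In DMSO 3 and 4 the means were 32 for KLF16, 8.21 for KLF10, 5.88 for KLF3, 4.24 for KLF6, 2.79 for KLF9, 1.01 for KLF2, 0.49 for KLF4 and 0.338 for KLF11. In DMSO 1 and 2 KLF16 stood at 279 and KLF2 was next, at 15.2. Since reads in introns were counted too, these levels per kilobase of transcript are approximate. The 8 genes together summed to 119, 125, 119 and 117 CPM in SY-351 replicates 1 to 4, against 992, 1007, 161 and 212 CPM in DMSO replicates 1 to 4. KLF16 alone made up 54.5% to 59% of that sum in SY-351 cells, against 81.8% and 79.5% in DMSO 1 and 2 and 49.9% and 49.3% in DMSO 3 and 4. Without KLF16 the sums were 48.9, 53, 54 and 51.4 CPM in SY-351 replicates 1 to 4, against 181, 206, 80.6 and 107 CPM in DMSO replicates 1 to 4.

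The following features of the members were not used in their choice, and most of them differ among the members. All 8 have at least 1 ATTTA pentamer, the core of AU-rich elements that mark unstable mRNAs, in the annotated 3′ UTR, as have 60.5% of the 17612 rows with such a UTR. The pentamers number 8 in KLF3 and in KLF9, 6 in KLF6 and in KLF11, 3 in KLF2 and in KLF10, and 2 in KLF4 and in KLF16, where the median row has 1. Longer UTRs have more room for the pentamer, and these rows were not matched for UTR length. Their UTRs differ in length, at 3779 bases in KLF3, 3556 in KLF6, 3179 in KLF9, 2329 in KLF11, 2060 in KLF16, 1353 in KLF10, 899 in KLF4 and 843 in KLF2. The extended letters TTATTTATT were found in KLF16, as in 6.85% of rows, at base 749 of its 3′ UTR: gaatcctggcTTATTTATTttcctctgtc, with the match in capitals. The counted intervals, introns included, run from 3837 bases for KLF2 to 37319 for KLF3. No other row of the table overlaps a member, but GENCODE places antisense genes over KLF3 (KLF3-AS1), KLF11 (AC104794.4) and KLF16 (AC012615.3 and AC012615.4). Whether the library kit kept strand is not given in the sources used here, so their reads may not be separable from those of these 3 members.

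Among the other KLF genes, those that moved did so in both directions. For this and the lists below, 13.6% of all tested genes were lower and 2.91% higher with all libraries. Without DMSO 1 and 2 these shares were 26.4% and 21.9%, and no excess of a list over them was tested. The 7 tested of 9 had 2 lower and 1 higher with all libraries (median log2 fold 0.04), and 3 lower and 3 higher without DMSO 1 and 2. KLF1, the erythroid activator, averaged 0.347 ± 0.0966 CPM in SY-351 cells and 4.86 ± 4.11 CPM in DMSO cells (SD, n = 4 each), with a log2 fold of -3.79 ± 0.76 (edgeR adjusted p = 0.0149). KLF5, an activator in dividing epithelium, averaged 3.48 ± 0.604 CPM in SY-351 cells and 17 ± 9.54 CPM in DMSO cells (-2.29 ± 0.48, edgeR adjusted p = 0.017). KLF8, a CtBP-binding repressor like KLF3, went the other way, at 1.09 ± 0.389 CPM in SY-351 cells and 0.28 ± 0.175 CPM in DMSO cells (1.91 ± 0.53, edgeR adjusted p = 0.0417). These 3 kept their directions without DMSO 1 and 2, at -1.89 ± 0.41, -1.31 ± 0.20 and 1.35 ± 0.42. KLF7 was higher without DMSO 1 and 2 (0.45 ± 0.16, edgeR adjusted p = 0.0125) and did not pass with all libraries (1.32 ± 0.86, 0.328). KLF15 had a log2 fold of -0.06 with all libraries, not passing, and of 1.07 without DMSO 1 and 2, passing (edgeR adjusted p = 1.75e-05). KLF17 did not pass with all libraries (0.04) and passed in opposite directions by the controls used, at -0.90 without DMSO 1 and 2 (edgeR adjusted p = 5.74e-05) and 4.54 with DMSO 1 and 2 as sole controls (3.65e-07). KLF12 did not pass with all libraries (0.34) or without DMSO 1 and 2 (-0.05), and KLF14 and KLF18 did not pass the filter.

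SP proteins are the closest relatives of the KLF family and bind the same GC boxes. Of 8 tested SP genes 1 was lower and 0 higher with all libraries (0 higher at an unadjusted p below 0.05, with DESeq2 or with limma-voom), and 4 were lower and 1 higher without DMSO 1 and 2. SP2 averaged 14.3 ± 1.42 CPM in SY-351 cells and 57.4 ± 23.6 CPM in DMSO cells (-2.01 ± 0.35, edgeR adjusted p = 0.00941; -1.39 ± 0.15 without DMSO 1 and 2). SP1, the founding member, had 69.2, 77.8, 76.7 and 69.2 CPM in SY-351 replicates 1 to 4, against 2.76, 1.42, 125 and 172 CPM in DMSO replicates 1 to 4. DMSO 1 and 2 were thus far below all others, the reverse of KLF2, KLF4, KLF9 and KLF16. Its log2 fold was -0.04 ± 1.24 with all libraries (edgeR adjusted p = 0.985). SP1 fell in the fit without DMSO 1 and 2, at 73.2 ± 4.68 CPM in SY-351 cells and 148 ± 32.6 CPM in DMSO 3 and 4 (SD, n = 4 and 2; edgeR adjusted p = 9.27e-10), but rose against DMSO 1 and 2 alone (log2 fold 4.98, 6.92e-07). SP3 (-0.50), SP4 (-0.97) and SP5 (3.25) did not pass with all libraries and passed without DMSO 1 and 2, at edgeR adjusted p of 0.00394, 6.11e-07 and 0.000492. SP5 was near the floor, at 0.0301 and 0.0213 CPM in DMSO 3 and 4, where 3 counts equal 0.015 and 0.0213 CPM. It had 0.0631, 0.0847, 0.198 and 0.744 CPM in SY-351 replicates 1 to 4. Against DMSO 1 and 2 as sole controls SP3 (-0.60, edgeR adjusted p = 0.00721) and SP4 (-0.88, 0.00157) passed as well. SP6, SP7 and SP8 passed neither with all libraries nor without DMSO 1 and 2, and SP9 did not pass the filter.

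The corepressors and coactivators that KLF proteins recruit were counted next. Of 13 corepressor genes, 2 were lower and 0 higher (1 higher at an unadjusted p below 0.05, with DESeq2 and with limma-voom), and 3 were lower and 3 higher without DMSO 1 and 2. The SIN3 complex subunit SAP30 averaged 3.23 ± 0.426 CPM in SY-351 cells and 50.6 ± 40.5 CPM in DMSO cells (-3.97 ± 0.69, edgeR adjusted p = 0.00968), and the deacetylase HDAC2 had a log2 fold of -2.10 ± 0.54 (0.0335). Another deacetylase, HDAC1, named after its values were seen, went the other way without passing (1.72 ± 0.51, edgeR adjusted p = 0.0538). HDAC1 was higher and passed without DMSO 1 and 2 (1.12 ± 0.17, edgeR adjusted p = 2.24e-10). Of 4 coactivators, the acetyltransferases EP300 (-1.47 ± 0.26, edgeR adjusted p = 0.00922) and CREBBP (-2.67 ± 0.54, 0.0154) were lower. KAT2B, named after its values were seen, was higher (1.59 ± 0.40, 0.0327). Without DMSO 1 and 2 the folds of SAP30 (-2.25), HDAC2 (-0.83), EP300 (-1.61), CREBBP (-1.40) and KAT2B (1.10) kept their signs and passed.

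Of 14 upstream regulators of KLF genes, 5 were lower and 1 higher with all libraries (median log2 fold -0.45), and 6 lower and 1 higher without DMSO 1 and 2. MAPK7, the ERK5 kinase that acts through MEF2 factors to raise KLF2 and KLF4 in endothelium, averaged 2.95 ± 0.453 CPM in SY-351 cells and 42.4 ± 36.1 CPM in DMSO cells (-3.84 ± 0.75, edgeR adjusted p = 0.0138). SMAD4, of the TGF-β pathway that induces KLF10 and KLF11, had a log2 fold of -1.41 ± 0.27 (edgeR adjusted p = 0.0123). The folds of MAPK7 and SMAD4 were -1.89 and -1.09 without DMSO 1 and 2, and both passed. Of 8 ubiquitin ligase genes for KLF proteins, 0 passed edgeR in either direction, with 1 lower and 0 higher at an unadjusted p below 0.05, 1 lower with DESeq2 and 0 with limma-voom. Without DMSO 1 and 2, 1 was lower and 3 were higher. SMURF1 (0.40 ± 0.22, edgeR adjusted p = 0.256) and FBXO32 (-1.35 ± 0.46, 0.0803) had the smallest p of them.

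Of 11 tested genes reported as KLF targets in various cell types, 5 were lower and 1 higher with all libraries, with a median log2 fold of -1.38. Without DMSO 1 and 2 the count was 6 lower and 2 higher. CD14, the monocyte surface receptor reported as a target of KLF4, averaged 1.47 ± 0.134 CPM in SY-351 cells and 33.7 ± 30.1 CPM in DMSO cells (-4.51 ± 0.83, edgeR adjusted p = 0.0113). It stood at -2.36 without DMSO 1 and 2, and passed. The 1 target that was higher, named after its values were seen, was the integrin gene ITGB7 (1.25 ± 0.26, edgeR adjusted p = 0.0164). Of the 22 called genes outside the KLF members that were followed through the alternatives, 18 lost their call whichever 1 of the 4 SY-351 libraries was left out.

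**Figure D4:**
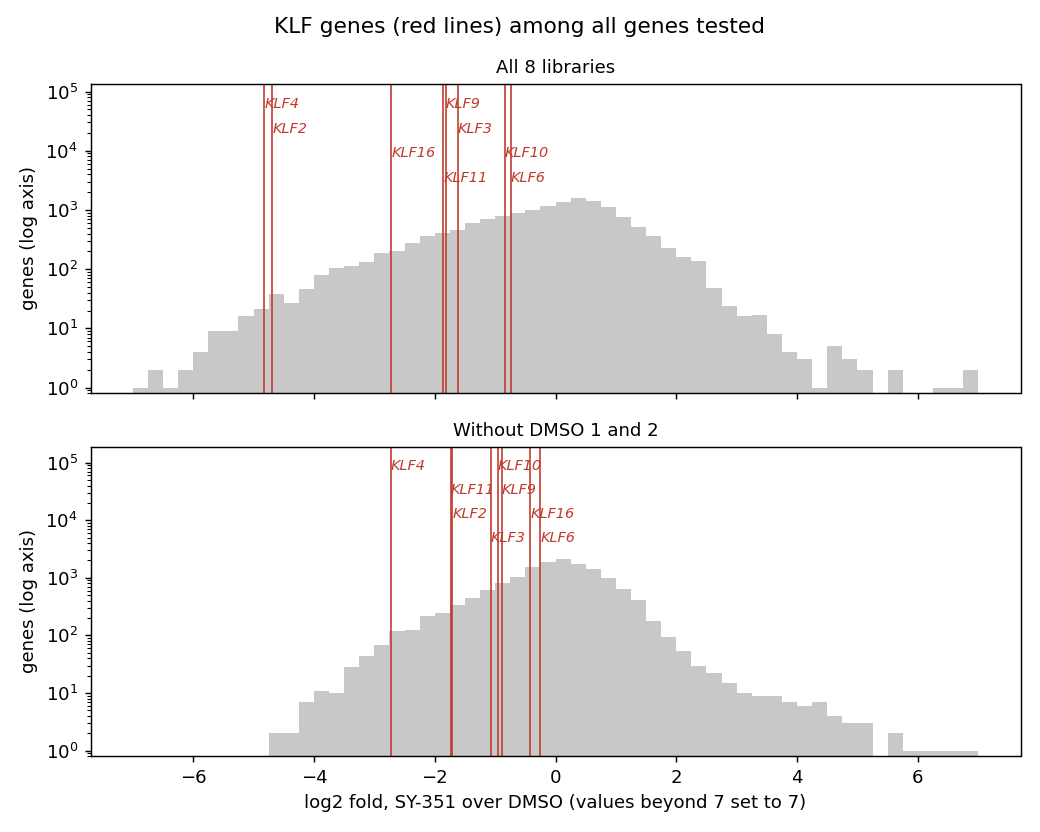
Histograms of the log2 fold of SY-351 over DMSO over all tested genes (grey, number of genes on a log axis), with all 8 libraries above and without DMSO 1 and 2 below, and with each KLF gene as a red line. The KLF median is -1.84 in the upper panel and -1.02 in the lower panel, where the median of all genes is 0.00 and 0.01.

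For the 3 members with the highest mean CPM over the 4 DMSO libraries, the genes of most similar pattern were found by the root mean square difference of log2(CPM + 0.5), centred per gene, over the 8 libraries, DMSO 1 and 2 included. KLF16 was closest to ARHGDIA (0.0519 on the log2 scale) and ARMC5 (0.0523). KLF3 was closest to EBF3 (0.0686) and MRPL16 (0.0721), and KLF9 to SPRED2 (0.0547) and C2orf68 (0.0548). Within the family, KLF3 and KLF9 were the nearest pair of those compared, at 0.207, while the nearest member to KLF16 was KLF4, at 0.434.

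In the authors' deposited table of local splicing variations, 0 of the 6716 entries belonged to a KLF member. Over the table, 55.7% of entries reached a probability of at least 0.95, and 18.9% of the tested genes had an entry. KLF7, SP1 and SP2 together had 4 entries. In the authors' deposited table, 1 junction of KLF7 had an expected inclusion of 0.672 in SY-351 cells and 0.153 in control cells, and the authors' own estimate of the difference was 0.53, with a posterior probability past 0.95. For SP1 the authors' deposited table gave an inclusion of 0.461 in SY-351 cells and 0.887 in control cells for 1 junction, and 0.506 in SY-351 cells and 0.08 in control cells for another. For SP2 the authors' deposited table gave 0.971 in SY-351 cells and 0.447 in control cells (the authors' estimate of the difference was 0.52). These values carry no replicate error.

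The libraries were checked for the identity of the cells. MPO, the promyelocyte enzyme, was abundant in all of them, at 32210, 28258, 29210 and 32719 CPM in SY-351 replicates 1 to 4, against 41361, 48112, 12116 and 15764 CPM in DMSO replicates 1 to 4. CD33, a myeloid surface marker, had 74.9 to 80.3 CPM in SY-351 cells, against 5.64 and 3.1 CPM in DMSO 1 and 2 and 62.4 and 86.4 CPM in DMSO 3 and 4. CTSG, a granule protease, had 586 to 670 CPM in SY-351 cells, against 83.9 and 19.4 CPM in DMSO 1 and 2 and 211 and 280 CPM in DMSO 3 and 4. Both were thus low in DMSO 1 and 2. Of the 5 lineage markers tested 1 was lower and 0 higher with all libraries (1 higher at an unadjusted p below 0.05, 1 with DESeq2 and 0 with limma-voom), and 1 lower and 3 higher without DMSO 1 and 2. The 2 with the smallest p were MYB (-0.95 ± 0.27, edgeR adjusted p = 0.0448) and CTSG (2.05 ± 0.72, 0.0886). Of 8 tested markers of other cell types 0 passed in either direction with all libraries (2 higher at an unadjusted p below 0.05, 1 with DESeq2 and 1 with limma-voom), and 4 were higher without DMSO 1 and 2. Their summed level was 26.1 to 28.5 CPM in SY-351 cells and 1.82 to 16.4 CPM in DMSO cells. PECAM1, which myeloid cells also express, had 20.7 to 23.5 CPM of this in SY-351 cells, against 0.874 and 0.426 CPM in DMSO 1 and 2 and 10.9 and 13.1 CPM in DMSO 3 and 4. The sums without it were 5.06 to 7.77 CPM in SY-351 cells, against 1.4 to 3.84 CPM in DMSO cells. The 2 with the smallest p, MS4A1 (2.35, edgeR adjusted p = 0.0609) and EPCAM (1.35, 0.126), stayed at or below 1.6 CPM in every library. The erythroid gene HBB was at 0 in 3 SY-351 libraries and 1 DMSO library and at most 0.0301 CPM in the others.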

How the data were processed

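Polyadenylated RNA was made into TruSeq libraries, per the labels' protocols. The authors deposited whole-number read counts per RefSeq transcript, made with featureCounts 1.6.2 at strand setting 1 over each transcript's interval from start to end, introns included, per the file headers. The submitters' processing notes list GRCh38 as the genome build and DESeq2 among the tools. The 16 records (4 replicates of each group, each with 2 technical repeats) stand behind 8 count columns, and how repeats were joined is not given in the sources used here. Reads in introns count, so unspliced RNA enters the levels. The authors' splicing table holds expected inclusion as a fraction and a score for the posterior probability of a difference, and its folder name carries words on outliers whose meaning is not given.

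Of 18093 rows, 17867 were matched to a symbol through RefSeq and 136 through GENCODE, and 90 had none. Counts were tested across all genes with edgeR 4.0.16 in R 4.3.3 (TMM scaling, filterByExpr, robust quasi-likelihood fit, group as the only term, two-sided, Benjamini-Hochberg adjusted p below 0.05). Alternatives were DESeq2 1.42.0, limma-voom (limma 3.58.1), other scalings and filters, a replicate block, leaving out libraries and an adjusted p below 0.01. The fit without DMSO 1 and 2 was also run with total count scaling, added after seeing the data. The procedure was also run on simulated counts. These did not carry the split of DMSO 1 and 2 from DMSO 3 and 4, so they cannot show how the fit behaves with it. Intervals and floors (3 counts) cover counting error only.

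The members and the 10 gene lists were chosen with earlier results of these data known. Named were all members, all other KLF and SP genes, and the 2 genes of smallest p in each other list, plus the 2 nearest patterns (mean of at least 10 CPM) of the 3 members with the highest mean CPM over the 4 DMSO libraries. ELANE, PRTN3, AZU1, COL1A1 and KLF13 were not analysed here, and 1 further gene that this rule names is not reported here.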

Additional observations from a re-analysis of the deposited data

How the results depend on the processing

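None of the 151 log2 folds of KLF genes under the alternatives changed sign: 105 kept their side of the threshold, 30 lost a call and 16 gained one. With DESeq2 4548 genes passed in place of 2550 (3484 lower in place of 2100), and 7 KLF genes in place of 5, all lower. With limma-voom 2121 genes passed (1544 lower and 577 higher of 15472), and 3 KLF genes, all lower (KLF2 at an adjusted p of 0.0598 and KLF9 at 0.0596 were lost). At an adjusted p below 0.01, 647 genes and 0 KLF genes passed (8 KLF genes lower at an unadjusted p below 0.05, as were 22.6% of all genes). Without DMSO 1 and 2, 7638 genes and 7 KLF genes passed, and against only DMSO 1 and 2 the counts were 12368 and 8. With total count scaling and without DMSO 1 and 2, chosen after seeing the data, 8913 genes and 8 KLF genes passed. There the median of all genes was -0.45 and that of the KLF genes -1.44. Scaling moved the median of all genes to 0.24 with the upper quartile and -0.11 with DESeq2's size factors. Leaving out 1 library at a time gave 539 (without SY-351 1) to 5323 (without DMSO 3) genes and 0 (without SY-351 2 or 3) to 8 (without DMSO 3) KLF genes. Without SY-351 2 or without SY-351 3, 7 KLF genes were lower at an unadjusted p below 0.05, as were 18% and 17.5% of all genes. KLF11 was not tested with a mean CPM of at least 1. The cause of these shifts was not tested.

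The replicate block removed all calls, leaving 0 genes and 0 KLF genes past the threshold (2288 genes lower, 1361 higher and 5 KLF genes lower at an unadjusted p below 0.05). Libraries with the same number did not deviate together (r of -0.176 to 0.006 over the 4 pairs). The deviations of the DMSO libraries carry the split among the controls, which could hide an effect shared by libraries of the same number. This check therefore cannot show whether the numbers pair the samples, and the loss of calls with the block stands.

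Since no KLF member had a splicing entry, that count is 0 at any probability, and the alternatives of 0.9 and 0.99 test nothing. Depth limits KLF4, KLF11 and KLF2 most, whose SY-351 values rest on 3 to 61 counts.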
